A study of Mus musculus with 14 samples.

Results

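This account covers the 10 postnatal day 3 (P3) libraries of a 14-library series on mouse male germ cells, ordered by how many functional copies of the demethylase genes Jmjd1a and Jmjd1b the genotype leaves. The order and its number of copies come from the genotype labels alone. P3 DKO (Vasa-Cre, both genes absent) has 0 copies. P3 Jmjd1aKO (Vasa-Cre, no Jmjd1a and 1 copy of Jmjd1b) and P3 Jmjd1bKO (Vasa-Cre, 1 copy of Jmjd1a and no Jmjd1b) have 1 copy each. P3 Ctrl (Vasa-Cre, heterozygous for both genes) has 2 copies, and P3 WT, whose label carries no Cre, has 4. Every group holds 2 libraries, all from testes of C57BL/6 mice. The 4 remaining libraries, P7 DKO and P7 Ctrl at day 7, have the DKO and Ctrl genotypes and their levels enter no slope and no step, though they enter the filter on low values and the shared estimate of the spread. Vasa-Cre is driven in germ cells, and the labels do not give which of the lost alleles depend on it, so the copies of other testis cells are not known here. The step from 4 to 2 copies is also the step from no Cre to Cre, and the 2 cannot be told apart. No sorting step is named in the labels. Nor do they state if the pair of libraries in a group came from different animals, and the p-values speak only for the spread among these libraries.

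JMJD1A and JMJD1B, listed under the gene symbols Kdm3a and Kdm3b, are paralogous demethylases of histone H3 lysine 9 (H3K9), whose methylation marks silent chromatin. Methyltransferases such as the one encoded by Ehmt2 place the mark, reader proteins bind it, and the demethylases keep it off genes that a cell uses. In the male germline, cells of this age leave the quiescent prospermatogonial state and form the first dividing spermatogonia.

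A gene was said to follow the copy number steadily when its slope over the 5 group means passed the test and its 3 steps, from 4 to 2, from 2 to 1 and from 1 to 0 copies, had 1 sign and each made up at least 15% of the whole change. A straight line over the copies would give 50, 25 and 25%. A gene was said to change at 1 step only when that step passed the test, no other step passed it, and each other step was at most 25% of it in size. At the step from 1 copy the mean of both single knockouts was used. Changes are given as differences of log2(RPKM + 1), fewer copies minus more, with the standard error (SE), so a positive value means higher with fewer copies and the change of genes near 1 RPKM is understated. Adjusted p-values are from limma with the Benjamini-Hochberg correction over the 14772 genes tested, at a threshold of 0.05.

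The slope passed in 5866 genes (39.7% of those tested), 3176 higher with fewer copies (21.5%) and 2690 lower (18.2%), while the steps themselves passed in far fewer. The step from 1 to 0 copies passed in 1081 genes (7.32%), the step from 4 to 2 in 104 (0.704%) and the step from 2 to 1 in 5 (0.0338%). The slope is not an even reading of the series. P3 WT carries 62.6% of its weight in squared terms and P3 DKO 27.8%, against 1.74% for P3 Ctrl. A line over the Cre carriers alone compares P3 DKO with P3 Ctrl and gives the single knockouts no weight. Over these carriers the slope passed in 661 genes (4.47%), 322 higher (2.18%) and 339 lower (2.29%). It passed in 2738 and 2856 genes without replicate 1 or replicate 2 of P3 WT. When every library was centred on its median, 2673 genes were higher and 3264 lower with fewer copies. The depth estimated from the RPKM steps was 51.3 and 56.4 M (mega) fragments in P3 DKO, 45.8 and 29.8 in P3 Jmjd1aKO, 48.9 and 29.1 in P3 Jmjd1bKO, 44.3 and 48.7 in P3 Ctrl and 15.1 and 16.4 in P3 WT. It therefore moves with the copy number at both ends, and its part in the slope was not tested. Genes listed at 0 numbered 3853 and 3995 in P3 DKO, against 7125 and 7293 in P3 WT.

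Markers of other testis cells were checked beside those of germ cells. The germ cell marker Ddx4 (also called Vasa) lay between 208 and 307 RPKM in the 10 libraries and Dazl between 299 and 525, and none of the 6 germ cell markers was at 0 in any. The summed level of 25 Sertoli cell markers stood apart in 2 libraries. It was 1333 RPKM in P3 Jmjd1aKO replicate 2 and 1628 in P3 Jmjd1bKO replicate 2. Of the other 8, P3 WT was highest, at 465 and 532 RPKM against 354 to 401 in the rest. Amh stood at 16.6 and 22.6 RPKM in P3 WT, against 3.24 and 5.91 in P3 DKO and 3.09 and 3.84 in P3 Ctrl. This difference falls at the step from 4 to 2 copies, and its part there and in the slope was not tested. The summed level of 18 stromal markers in replicate 2 of the single knockouts was 192 and 208 RPKM, against 32.9 to 73.0 in the others. All of the Sertoli and stromal defining markers were above 0 in every library. The sums of the other lists ran from 125 to 228 RPKM for Leydig cells, 83.6 to 147 for leukocytes, 77.8 to 131 for endothelium and 20.8 to 98.9 for red cells, where P3 Jmjd1aKO replicate 2 was highest. Among their defining markers Insl3 was listed at 0 in 3 libraries, Cyp17a1 and Hsd3b1 in 2 each, and Cyp11a1, C1qa, Tie1, Hba-a1 and Hbb-bt in 1 each. The Leydig sum was highest in replicate 2 of P3 Jmjd1aKO and P3 Jmjd1bKO, at 225 and 228 RPKM, against 125 to 176 in the other 8. In a bulk library, fewer cells of a type and less RNA per cell cannot be told apart. The 2 libraries with Sertoli sums of 1333 and 1628 RPKM both hold 1 copy. The counts at the steps from 2 to 1 and from 1 to 0 are therefore given with and without them. The values of single genes are given with all libraries.

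The deleted genes show how far the label order shows in their own RNA. Kdm3a (chromosome 6, 71588972 to 71632990, GRCm38) stood at 12.1 and 14.3 RPKM in P3 DKO, 9.83 and 9.84 in P3 Jmjd1aKO, 26.1 and 25.4 in P3 Jmjd1bKO, 28.4 and 26.3 in P3 Ctrl and 44.1 and 45.2 in P3 WT. The P3 Jmjd1bKO libraries lay close to P3 Ctrl, which carries the same number of Jmjd1a copies, and the P3 Jmjd1aKO libraries lay below P3 DKO. Kdm3b (chromosome 18, 34777047 to 34838660) stood at 4.26 and 4.48 RPKM in P3 DKO, 9.81 and 13.9 in P3 Jmjd1aKO, 4.72 and 7.51 in P3 Jmjd1bKO, 10.2 and 13.5 in P3 Ctrl and 26.9 and 26.9 in P3 WT. Its P3 Jmjd1aKO libraries overlapped those of P3 Ctrl. Per copy lost Kdm3a changed by -0.45 ± 0.025, limma adjusted p = 6.1e-05, and Kdm3b by -0.57 ± 0.049, limma adjusted p = 0.000402. Because each single knockout lacks 1 gene only, these 2 transcripts follow the sum of copies only through the mean of the single knockouts. The RNA that remained does not show how complete the deletion was.

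A total of 1042 genes (7.05% of those tested) followed the copy number steadily, 510 higher with fewer copies (3.45%) and 532 lower (3.6%). The genes that were higher had low levels, with a median of the mean level of 2.90 RPKM, against 30.5 RPKM for the genes that were lower and 9.69 RPKM for all tested genes. Of the 510, 199 had both P3 WT libraries below 1 RPKM and 9 had both at 0. Their median change was 0.23 per copy lost, with steps of 0.32 from 1 to 0, 0.23 from 2 to 1 and 0.35 from 4 to 2. For the genes that were lower the median change was -0.15 per copy lost, with steps of -0.20, -0.16 and -0.24 in the same order. The step from 4 to 2 made up a median of 37.0 and 40.4% of the change in the higher and lower genes. The class rule sets a least share for every step and so limits the share of this one. These medians therefore cannot be read against the 50% of a straight line. Departure from a straight line, by limma's moderated F test, passed in 0 of the 510 genes and 0 of the 532. The count of steady genes was 533 without P3 Ctrl replicate 2, 627 and 655 without replicate 1 or replicate 2 of P3 WT, 1564 without P3 Jmjd1aKO replicate 2 and 1672 without P3 Ctrl replicate 1. It was 2239 without replicate 2 of both single knockouts, of which 666 were among the 1042. When every library was centred on its median the split was 399 higher and 732 lower. Libraries of the 4 copy levels did not overlap at all in 22 (4.31%) of the 510 genes and 7 (1.32%) of the 532, against 27 (0.183%) and 9 (0.0609%) of all tested genes. The rule that chose the class used these same libraries, so this is a description.

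The 8 genes with the largest rise per copy lost, leaving out predicted genes and small RNAs, were Nol4, Prelid2, Dnaaf3, Cdc42ep5, Prkcdbp, Pnmal1, Igfbp6 and Ripk3. They were chosen by these values, which are therefore a description. Ripk3 (chromosome 14, 55784995 to 55788865), the kinase of necroptotic cell death, stood at 48.5 and 41.4 RPKM in P3 DKO, 31.4 and 28.4 in P3 Jmjd1aKO, 15.6 and 10.5 in P3 Jmjd1bKO, 15.9 and 12.8 in P3 Ctrl and 9.69 and 8.66 in P3 WT. P3 Jmjd1aKO lay between P3 DKO and P3 Ctrl and P3 Jmjd1bKO overlapped P3 Ctrl, and the difference between the single knockouts did not pass (1.16 ± 0.18, limma adjusted p = 0.154). The slope was 0.49 ± 0.042 per copy lost. Prelid2 (chromosome 18, 41875600 to 41951242), which encodes a protein with a PRELI domain, is one of the genes whose libraries of the 4 levels did not overlap, at 13.5 and 13.2 RPKM in P3 DKO, 6.77 and 10.3 in P3 Jmjd1aKO, 8.17 and 9.84 in P3 Jmjd1bKO, 4.28 and 3.85 in P3 Ctrl and 1.15 and 2.55 in P3 WT. Here both single knockouts lay between P3 DKO and P3 Ctrl. Dnaaf3 (chromosome 7, 4522933 to 4532453), a factor for the assembly of axonemal dynein, stood at 8.23 and 8.46 RPKM in P3 DKO, 7.97 and 6.46 in P3 Jmjd1aKO, 2.96 and 2.86 in P3 Jmjd1bKO, 3.45 and 2.54 in P3 Ctrl and 0.773 and 1.16 in P3 WT. It was close to the P3 DKO level in P3 Jmjd1aKO and to the P3 Ctrl level in P3 Jmjd1bKO. The slope of Nol4 was 0.65 ± 0.074 per copy lost, with 11.6 and 9.8 RPKM in P3 DKO and 0.166 and 0.759 in P3 WT. It had 5.21 and 3.65 RPKM in P3 Jmjd1aKO, 1.31 and 0.457 in P3 Jmjd1bKO and 1.36 and 1.07 in P3 Ctrl. Igfbp6, a binding protein of insulin-like growth factors, had 5.73 and 7.75 RPKM in P3 DKO and 1.47 and 0.557 in P3 WT. Pnmal1 was listed at 0 in both P3 WT libraries and had 3.23 and 4.02 RPKM in P3 DKO. Cdc42ep5, an effector of the GTPase Cdc42, and Prkcdbp, a caveolar coat protein gene also called Cavin3, had slopes of 0.51 ± 0.11 and 0.50 ± 0.053. In Nol4, Igfbp6, Pnmal1 and Prkcdbp the P3 Jmjd1aKO libraries lay above P3 Ctrl and those of P3 Jmjd1bKO overlapped it. In Cdc42ep5 both single knockouts lay above P3 Ctrl.

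**Figure D1:**
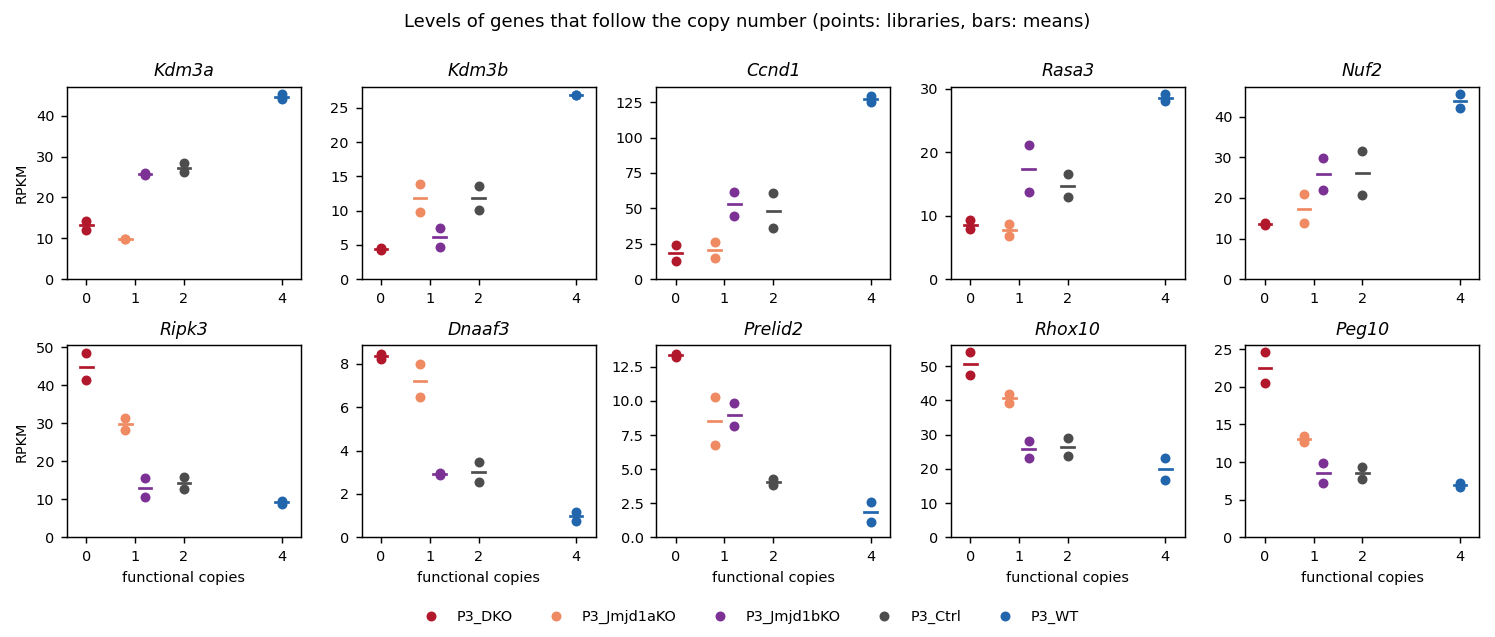
RPKM of genes that follow the copy number, per library, against functional copies of Jmjd1a and Jmjd1b (0 to 4). Points are libraries and bars are means, with the single knockouts side by side at 1 copy: Ripk3 and Prelid2 are highest in P3 DKO and lowest in P3 WT, and Ccnd1 is highest in P3 WT, at 129.7 and 125 RPKM.

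The 8 genes with the largest falls were Ccnd1, Kdm3b, Lincenc1, Cd7, Kdm3a, Rasa3, Hist1h1a and Nuf2. Ccnd1 (chromosome 7, 144929931 to 144939925), cyclin D1 of the G1 phase, stood at 12.9 and 23.9 RPKM in P3 DKO, 14.9 and 26.5 in P3 Jmjd1aKO, 44.3 and 61.7 in P3 Jmjd1bKO, 36.03 and 60.6 in P3 Ctrl and 129.7 and 125 in P3 WT. P3 WT lay above every other library, P3 DKO and P3 Jmjd1aKO overlapped, and P3 Jmjd1bKO overlapped P3 Ctrl. The slope was -0.68 ± 0.078 per copy lost. Nuf2 (chromosome 1, 169497934 to 169531464), a kinetochore protein, stood at 13.3 and 13.8 RPKM in P3 DKO, 13.8 and 20.9 in P3 Jmjd1aKO, 21.9 and 29.9 in P3 Jmjd1bKO, 20.7 and 31.4 in P3 Ctrl and 42.3 and 45.6 in P3 WT. P3 DKO overlapped P3 Jmjd1aKO and lay below P3 Jmjd1bKO, P3 Ctrl and P3 WT. Rasa3, a GTPase-activating protein of Ras, had 9.32 and 7.85 RPKM in P3 DKO and 29.2 and 28.1 in P3 WT, with a slope of -0.41 ± 0.05. The linker histone gene Hist1h1a had a slope of -0.40 ± 0.085, the surface protein gene Cd7 one of -0.45 ± 0.081, and the non-coding RNA Lincenc1 one of -0.45 ± 0.068.

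The single knockouts, which share the same number of copies, stood at different distances from P3 DKO in the steady genes. P3 Jmjd1aKO lay farther towards P3 DKO than P3 Jmjd1bKO did in 492 of the 510 steady genes that were higher (96.5%) and in 524 of the 532 that were lower (98.5%), against 11566 of all tested genes (78.3%). The median difference from P3 Ctrl in the first set was 0.40 in P3 Jmjd1aKO and 0.06 in P3 Jmjd1bKO. In the second set it was -0.28 in P3 Jmjd1aKO and -0.03 in P3 Jmjd1bKO. Without replicate 2 of both single knockouts the direction was the same in 1003 of the 1042 genes (96.3%), against 73.1% of all tested genes, and the medians for P3 Jmjd1aKO and P3 Jmjd1bKO were 0.44 and 0.10 in the first set and -0.30 and -0.04 in the second. Both single knockouts lay between P3 DKO and P3 Ctrl in 341 (66.9%) and 317 (59.6%) of these genes, against 2413 of all tested genes (16.3%). The rule that chose the steady genes places the mean of the single knockouts there. For single genes the difference between the single knockouts passed the test in 5 of the 14772 genes tested (0.0338%) and in 2 of the 1042, Kdm3a and Dppa5a, and 1526 genes had an unadjusted p under 0.05. Dppa5a (chromosome 9, 78367052 to 78368177), a marker of pluripotent and early germ cells, stood at 75.1 and 75.7 RPKM in P3 DKO, 82.5 and 90.1 in P3 Jmjd1aKO, 52.97 and 48.3 in P3 Jmjd1bKO, 52.1 and 55.2 in P3 Ctrl and 44.05 and 37.6 in P3 WT. P3 Jmjd1aKO was the highest of the 5 groups and P3 Jmjd1bKO overlapped P3 Ctrl, a difference between the single knockouts of 0.76 ± 0.095, limma adjusted p = 0.0408. With small RNAs and predicted genes left out the adjusted p was 0.079, and without replicate 2 of both single knockouts it was 0.45. The other 3 calls were the microRNA loci Mir23a, Mir6898 and Mir8105, chosen for mention after their values were seen. The level at 1 copy is in this class the mean of 2 groups whose median differences from P3 Ctrl were unequal. The same holds for genes that changed only from 1 to 0. There P3 Jmjd1aKO lay farther towards P3 DKO in 81 of 82 higher genes (98.8%) and 120 of 121 lower ones (99.2%). Their median differences from P3 Ctrl had opposite signs, 0.16 in P3 Jmjd1aKO and -0.18 in P3 Jmjd1bKO for higher genes, and -0.12 and 0.13 for lower ones. The mean at 1 copy averages these shifts.

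**Figure D2:**
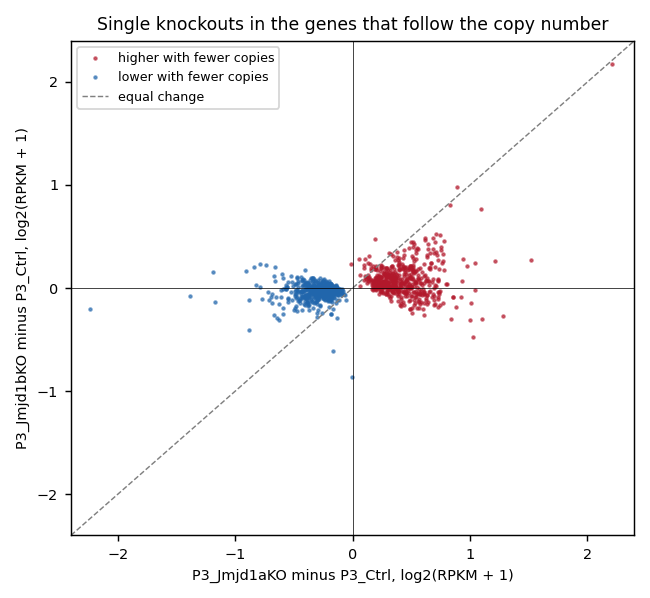
Difference of each single knockout from P3 Ctrl, log2(RPKM + 1), for the 1042 genes that follow the copy number steadily. P3 Jmjd1aKO is on the horizontal axis and P3 Jmjd1bKO on the vertical one, and most points lie near the horizontal axis, with medians of 0.40 and -0.28 for P3 Jmjd1aKO against 0.06 and -0.03 for P3 Jmjd1bKO.

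Genes that changed only at the step from 1 to 0 copies numbered 203 (1.37%), 82 higher (0.555%) and 121 lower (0.819%) in P3 DKO. The step itself passed in 584 genes higher (3.95%) and 497 lower (3.36%). Both counts turn on single libraries. P3 WT and P3 Ctrl are not in this step, so leaving out their libraries kept its size in every gene. Only the shared estimate of the spread and its residual df changed there. The step count was 1081 with all libraries, 14 without P3 Jmjd1aKO replicate 2, 15 without P3 DKO replicate 2, 48 without P3 Jmjd1bKO replicate 2 and 92 without P3 DKO replicate 1. It was 271 and 266 without replicate 1 or replicate 2 of P3 WT, 640 and 634 without replicate 1 or replicate 2 of P3 Ctrl, 2222 without P3 Jmjd1aKO replicate 1 and 2698 without P3 Jmjd1bKO replicate 1. The count of genes with this step alone was 3, 6, 9 and 36 without P3 Jmjd1aKO replicate 2, P3 DKO replicate 2, P3 Jmjd1bKO replicate 2 and P3 DKO replicate 1, and 6 without replicate 2 of both single knockouts, where the step itself passed in 35 genes. The count with this step alone was 69 and 73 without replicate 1 or replicate 2 of P3 WT and 120 and 112 without replicate 1 or replicate 2 of P3 Ctrl. The step kept its sign in all 203 genes without replicate 2 of both single knockouts, and 4 of the 203 were among the 6. Of the genes named below for this step, Lgals1 passed without these 2 libraries (adjusted p = 0.0294, limma), and the others had adjusted p-values from 0.0552 for Ehmt2 to 0.171 for Rps3. With the P3 libraries alone in the fit, the step passed in 10 genes and 4 had it alone.

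Among the genes with this step only, the 4 with the largest rises were Otx2, CK137956, Crb3 and Nobox. Otx2 (chromosome 14, 48657677 to 48673819), a homeobox factor of early embryonic and neural cells, stood at 2.02 and 5.16 RPKM in P3 DKO, 1.37 and 0.912 in P3 Jmjd1aKO, 0.254 and 0.0879 in P3 Jmjd1bKO, 0.196 and 0.43 in P3 Ctrl and 0 and 0.124 in P3 WT. Both P3 DKO libraries were above every other library, and P3 Jmjd1aKO was above P3 Jmjd1bKO. The step from 1 to 0 was 1.45 ± 0.25. Crb3 (chromosome 17, 57059105 to 57065918), a protein of epithelial polarity, stood at 7.08 and 10.4 RPKM in P3 DKO, 4.98 and 3.97 in P3 Jmjd1aKO, 2.14 and 1.87 in P3 Jmjd1bKO, 2.15 and 3.37 in P3 Ctrl and 3.08 and 3.18 in P3 WT, with P3 DKO above all others. Nobox, a homeobox gene of oocytes, had 3.16 and 2.91 RPKM in P3 DKO, against 1.16 and 0.774 in P3 Ctrl, and its step was 1.12 ± 0.23. CK137956 had 2.83 and 3.52 RPKM in P3 DKO and 0.807 and 0.55 in P3 Ctrl, with a step of 1.31 ± 0.26.

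Lgals1, Sphk1 and Gpsm3 were among the 4 largest falls. Lgals1 (chromosome 15, 78926725 to 78930465), galectin 1, stood at 57.1 and 69.5 RPKM in P3 DKO, 112 and 206 in P3 Jmjd1aKO, 184 and 262 in P3 Jmjd1bKO, 171 and 154 in P3 Ctrl and 171 and 135 in P3 WT. P3 DKO lay below every other library, and the step was -1.52 ± 0.23. Sphk1, a sphingosine kinase, had 11.7 and 17.8 RPKM in P3 DKO, and between 31.4 and 58.9 in the other groups, with a step of -1.49 ± 0.37. Gpsm3, a regulator of G protein signalling, had 7.64 and 20.6 RPKM in P3 DKO against 36.6 and 42.7 in P3 Ctrl.

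Genes that changed only at the step from 4 to 2 copies numbered 42 (0.284%), 23 higher (0.156%) and 19 lower (0.129%) with fewer copies. This step passed in 60 genes higher (0.406%) and 44 lower (0.298%). Luzp4 (chromosome X, 148857640 to 148924139), a gene for a leucine zipper protein, stood at 4.02 and 3.09 RPKM in P3 DKO, 2.82 and 2.35 in P3 Jmjd1aKO, 2.63 and 2.59 in P3 Jmjd1bKO, 3.06 and 3.12 in P3 Ctrl and 0.33 and 0.233 in P3 WT. The 8 Cre carrier libraries formed 1 level above P3 WT, and the step was 1.68 ± 0.22. Akr1b8 (chromosome 6, 34354119 to 34368463), an aldo-keto reductase, stood at 66.1 and 62.2 RPKM in P3 DKO, 74.02 and 66.7 in P3 Jmjd1aKO, 61.5 and 56.1 in P3 Jmjd1bKO, 70.6 and 44.3 in P3 Ctrl and 23.3 and 20.2 in P3 WT. Its 8 Cre carrier libraries ranged from 44.3 to 74 RPKM, all above P3 WT. Marveld2, tricellulin of tight junctions, had 89.4 and 71.7 RPKM in P3 Ctrl and 33.05 and 33.7 in P3 WT. Ankrd55 had 3.51 and 2.6 RPKM in P3 Ctrl and 0.104 and 0.0754 in P3 WT.

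In the other direction Gucy2c, the receptor guanylate cyclase of guanylin, had 0.975 and 2.18 RPKM in P3 Ctrl and 8.65 and 8.83 in P3 WT. Haus4 (chromosome 14, 54541785 to 54554616), a subunit of the augmin complex of the spindle, stood at 52.03 and 39.5 RPKM in P3 DKO, 49.2 and 50.5 in P3 Jmjd1aKO, 47.6 and 60.3 in P3 Jmjd1bKO, 47.8 and 56.8 in P3 Ctrl and 96.1 and 103 in P3 WT, with P3 WT above every Cre carrier library. Hook1, a linker of organelles to microtubules, had 21.8 and 26.2 RPKM in P3 Ctrl and 40.1 and 44.4 in P3 WT. Cbln2 had 2.54 and 2.81 RPKM in P3 Ctrl and 5.73 and 6.24 in P3 WT. P3 DKO and the single knockouts are not in this step, so leaving out their libraries kept its size in every gene. Only the shared estimate of the spread and its residual df changed there. The step count was 4 without P3 Ctrl replicate 1, 7 without either P3 WT replicate, 21 and 22 without replicate 1 or replicate 2 of P3 DKO, 231 without P3 Ctrl replicate 2, 784 without P3 Jmjd1bKO replicate 1 and 822 without P3 Jmjd1bKO replicate 2. The count of genes with this step alone was 2 without P3 Ctrl replicate 1, 5 without either P3 WT replicate, 8 and 13 without replicate 1 or replicate 2 of P3 DKO, 21 without P3 Jmjd1aKO replicate 1 and 122 without P3 Ctrl replicate 2. It was 127 and 265 without replicate 1 or replicate 2 of P3 Jmjd1bKO, 485 without replicate 2 of both single knockouts, and 7 with the P3 libraries alone in the fit.

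No gene changed only at the step from 2 to 1 copies (0 of 14772). Of the 5 genes at which this step passed, 2 higher (0.0135%) and 3 lower (0.0203%), 1 was Kdm3a and 4 were the microRNA loci Mir23a, Mir6898, Mir8105 and Mir93, named because the count is small. The count was 8 without P3 Ctrl replicate 2 and 12 without replicate 2 of both single knockouts, and 728 genes had an unadjusted p under 0.05. Genes with this step alone numbered 1 or 2 when a library of P3 Ctrl or P3 DKO replicate 1 was left out. Of these loci, Mir6898 was listed at 46.2 and 40.4 RPKM in P3 Jmjd1aKO, Mir8105 at 20.2 and 22.9 in P3 Jmjd1bKO and Mir93 at 23.3 and 21.1 in P3 Ctrl, and each was listed at 0 in the other P3 groups. The library kit is for mRNA, so the values of these loci are not levels of mature microRNAs. Departure from a straight line passed in 7 genes (0.0474%) by limma's moderated F test, and 2168 had an unadjusted p under 0.05. The 7 included Exoc3l and the loci Mir23a, Mir345, Mir6898, Mir8105 and Mir93. Leaving out small RNAs and predicted genes, it passed in 2.

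**Figure D3:**
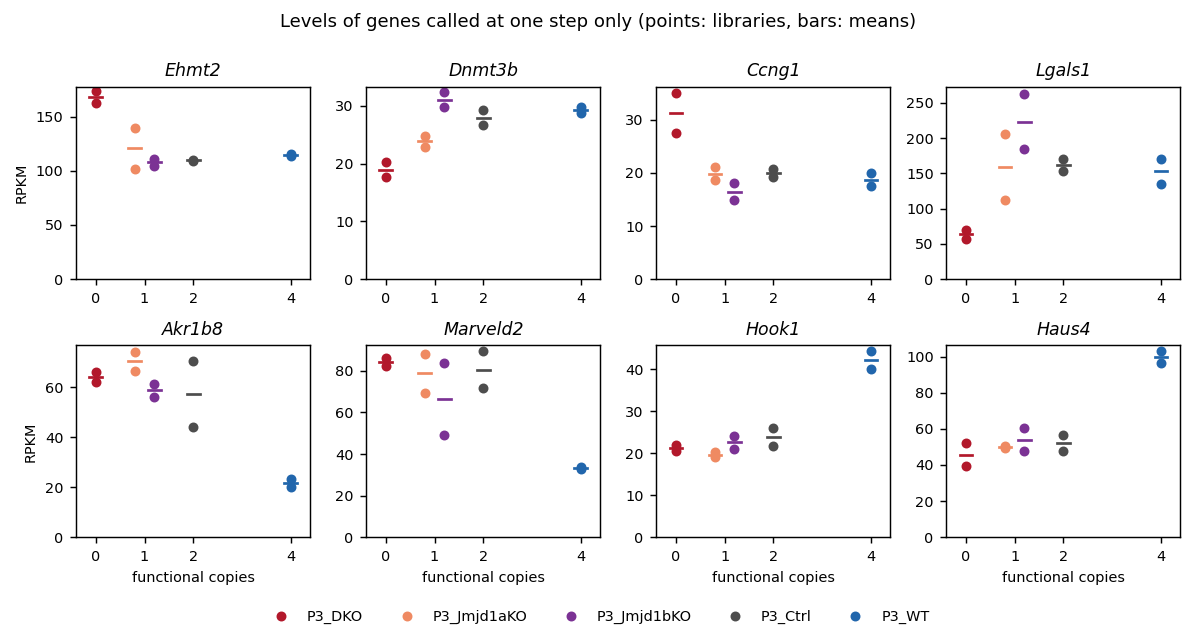
RPKM per library of genes that change at 1 step only, against functional copies (0 to 4). Points are libraries and bars are means: Ehmt2, Dnmt3b, Ccng1 and Lgals1 change in P3 DKO, and Akr1b8, Marveld2, Hook1 and Haus4 set P3 WT apart from the 8 Cre carrier libraries, as with Akr1b8 at 20.2 and 23.3 RPKM in P3 WT.

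**Figure D4:**
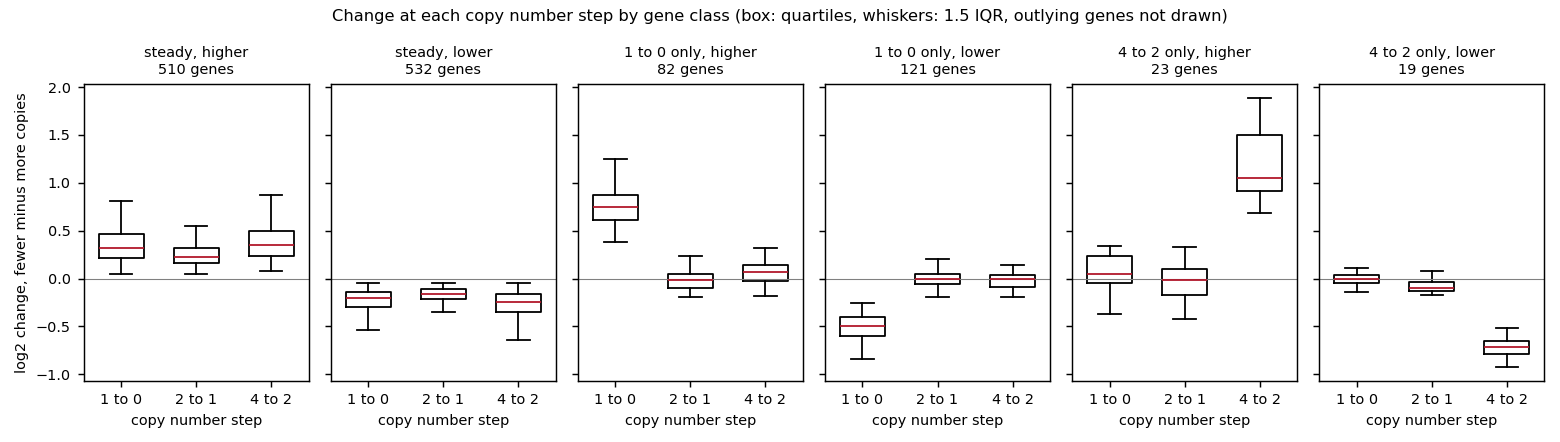
Change in log2(RPKM + 1) at each copy number step in each class of genes (boxes are quartiles, and outlying genes are not drawn). By the rules that chose them, the steady classes (510 and 532 genes) move at all 3 steps and the other classes at 1 step.

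In the day 7 libraries steady genes moved in either direction. The levels of these libraries enter no slope and no step, but their spread is part of the fit that sorted the genes. Against P7 Ctrl, P7 DKO was higher in 2569 tested genes (17.4%) and lower in 2385 (16.1%). Of the 510 steady genes that were higher with fewer copies, 102 were higher (20%) and 92 were lower (18.04%) in P7 DKO. Of the 532 that were lower, 136 were lower (25.6%) and 110 were higher (20.7%). Of the genes that changed only from 1 to 0, 20 of the 82 higher ones were higher and 12 were lower in P7 DKO, and of the 121 lower ones 27 were lower and 34 were higher. When every library was centred on its median, 2890 genes were higher and 2089 lower in P7 DKO. Named examples went both ways. Ripk3 changed by 0.89 ± 0.18, limma adjusted p = 0.00499 in P7 DKO and Lgals1 by -2.25 ± 0.27, limma adjusted p = 0.000289, the direction of day 3. Dnaaf3 changed by -0.998 ± 0.19, limma adjusted p = 0.00338, and Sohlh2, a transcription factor of early spermatogonia that was lower with fewer copies at day 3, by 2.15 ± 0.094, limma adjusted p = 2.46e-06, both against it.

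Gene lists, described by their counts, were read against the shares of all tested genes (21.5% higher and 18.2% lower over the slope). Counts over the Cre carriers alone compare P3 DKO with P3 Ctrl and do not use P3 WT. They are read against 2.18% higher and 2.29% lower, and counts at the step from 1 to 0 against 3.95% higher and 3.36% lower. In the DNA replication and S phase list 27 of 34 tested members were lower and none higher, and 11 followed the copy number steadily. Over the Cre carriers 13 were lower and at the step from 1 to 0 15 were lower, with none higher in either. Mcm10 (chromosome 2, 4989714 to 5012791), a replication initiation factor, stood at 16.9 and 15.7 RPKM in P3 DKO, 17.97 and 23.2 in P3 Jmjd1aKO, 28.2 and 35.8 in P3 Jmjd1bKO, 25.7 and 36.2 in P3 Ctrl and 44.3 and 46.7 in P3 WT, in order of copy number apart from the P3 Jmjd1bKO and P3 Ctrl libraries, with a slope of -0.33 ± 0.041, limma adjusted p = 0.000901. Rrm1, the large subunit of ribonucleotide reductase, had 53.4 and 53.4 RPKM in P3 DKO and 133 and 134 in P3 WT, a slope of -0.30 ± 0.037, limma adjusted p = 0.000881. Orc1, a subunit of the origin recognition complex, changed by -0.30 ± 0.063, limma adjusted p = 0.0056. In the G2 and mitosis list 26 of 27 members were lower, 3 of them steadily: Ttk, a spindle checkpoint kinase (-0.28 ± 0.047, limma adjusted p = 0.00234), Mad2l1 (-0.25 ± 0.034, limma adjusted p = 0.00113) and Bub1 (-0.19 ± 0.028, limma adjusted p = 0.00136), both of the same checkpoint. Over the Cre carriers 2 of the 27 were lower and at the step from 1 to 0 4 were, with none higher. The summed level of the S phase list was 1746 and 1601 RPKM in P3 DKO, 1865 and 2150 in P3 Jmjd1aKO, 2501 and 2778 in P3 Jmjd1bKO, 2290.0 and 2767 in P3 Ctrl and 3080.3 and 3107 in P3 WT.

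Germ cell and pluripotency lists held members of both directions. Higher members were below the 21.5% of all tested genes in the undifferentiated, differentiating, pan-germ-cell and piRNA lists. Lower members were below 18.2% in the piRNA list and above it in the others. Over the Cre carriers 2 were higher and 2 lower in the undifferentiated list, and 1 and 3 in the differentiating list. In the pan-germ-cell list 1 was higher and 0 lower there, and in the piRNA list 0 and 1. Of the pluripotency and primordial germ cell list, 11 of 20 tested members were higher and 3 lower, with 5 higher and 1 lower over the Cre carriers. Dppa3, also called Stella, a maternal and germline factor, stood at 4.61 and 6.1 RPKM in P3 DKO, 3.93 and 4.13 in P3 Jmjd1aKO, 1.51 and 0.445 in P3 Jmjd1bKO, 1.06 and 1.66 in P3 Ctrl and 0.759 and 0.886 in P3 WT. P3 DKO and P3 Jmjd1aKO lay above all the others. Of 12 tested Rhox homeobox genes on chromosome X, 9 were higher and none lower, 4 were higher over the Cre carriers, and 3 followed the copy number steadily. Rhox10 (chromosome X, 38066475 to 38071691) stood at 47.3 and 54.1 RPKM in P3 DKO, 39.1 and 41.9 in P3 Jmjd1aKO, 23.04 and 28.2 in P3 Jmjd1bKO, 23.7 and 28.9 in P3 Ctrl and 16.8 and 23.2 in P3 WT, with a slope of 0.30 ± 0.043, limma adjusted p = 0.00138. It was higher in both P3 DKO and P3 Jmjd1aKO than in the other libraries. Rhox4g, listed at 0 in both P3 WT libraries, changed by 0.31 ± 0.061. The undifferentiated spermatogonia list had 6 of 31 higher and 9 lower: Zbtb16, a zinc finger factor of stem cell maintenance, changed by -0.31 ± 0.07, limma adjusted p = 0.00805, Utf1 by 0.24 ± 0.059, limma adjusted p = 0.0109 and Cd9, a tetraspanin, by -0.17 ± 0.046, limma adjusted p = 0.0181. In the list for differentiating spermatogonia and meiotic entry 1 of 16 was higher and 7 lower, among them Sohlh2 (-0.19 ± 0.022, limma adjusted p = 0.00073). Rhox13, a member of that list and of the Rhox list, changed by 0.16 ± 0.025, limma adjusted p = 0.00217. Of the pan-germ-cell genes 2 of 15 were higher and 5 lower, and Dppa3, given above, is also in that list. The piRNA pathway and de novo methylation list had 2 of 20 higher and 3 lower. Dnmt3b, a de novo methyltransferase, was in the class of the step from 1 to 0 only (-0.50 ± 0.085, limma adjusted p = 0.0266). It had 20.2 and 17.7 RPKM in P3 DKO, 22.95 and 24.9 in P3 Jmjd1aKO, 32.5 and 29.7 in P3 Jmjd1bKO and 26.7 and 29.2 in P3 Ctrl. P3 Jmjd1aKO thus already lay below P3 Jmjd1bKO and P3 Ctrl, and the class rule used the mean of the single knockouts.

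In the list of writers and readers of H3K9 methylation 1 of 16 was higher and 10 were lower over the slope. Over the Cre carriers 1 was higher and 1 lower, and at the step from 1 to 0 1 was higher and none lower. Ehmt2, an H3K9 methyltransferase, stood at 162 and 173 RPKM in P3 DKO, 139 and 102 in P3 Jmjd1aKO, 104 and 111 in P3 Jmjd1bKO, 109 and 110.0 in P3 Ctrl and 116 and 114 in P3 WT, and it changed at the step from 1 to 0 only (0.56 ± 0.11, limma adjusted p = 0.0283). Uhrf1, a reader of methylated DNA and histones, changed by -0.22 ± 0.04, limma adjusted p = 0.00337 and Cdyl, a chromodomain protein, by -0.15 ± 0.021, limma adjusted p = 0.0012. Of the 10 tested Kdm3 genes and other H3K9 demethylases, 2 were lower, Kdm3a and Kdm3b, and none was higher. In the list of the Mage family and other germline genes under H3K9 methylation 4 of 27 were higher and 5 lower. Tuba3b changed by -0.27 ± 0.033, limma adjusted p = 0.00088, Mageb4 by -0.13 ± 0.021, limma adjusted p = 0.00197 and Slc25a31, an ADP/ATP carrier of germ cells, by -0.11 ± 0.022, limma adjusted p = 0.00431. They are the 3 members of that list that were in one of the classes, and the members that were higher over the slope were in none. Against P7 Ctrl, Tuba3b changed in P7 DKO by 0.70 ± 0.14, limma adjusted p = 0.00492 and Slc25a31 by 0.31 ± 0.096, limma adjusted p = 0.0334. Mageb4 changed there by 0.21 ± 0.091, limma adjusted p = 0.106.

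Of 25 imprinted genes 14 were higher and 3 lower over the slope, and 2 were higher and 2 lower over the Cre carriers. Peg10 (chromosome 6, 4747306 to 4760517), a paternally expressed gene, stood at 20.5 and 24.6 RPKM in P3 DKO, 12.7 and 13.5 in P3 Jmjd1aKO, 7.28 and 9.84 in P3 Jmjd1bKO, 7.72 and 9.41 in P3 Ctrl and 7.23 and 6.73 in P3 WT, a slope of 0.33 ± 0.037, limma adjusted p = 0.00073. P3 DKO lay above P3 Jmjd1aKO, which lay above the remaining groups. H19, a maternally expressed RNA, fell at the step from 1 to 0 (-1.32 ± 0.26, limma adjusted p = 0.0287), and Plagl1, a zinc finger factor, changed by 0.32 ± 0.055, limma adjusted p = 0.00257. Of 19 p53 targets 5 were higher and 1 was lower, with Ccng1 (0.76 ± 0.13, limma adjusted p = 0.0266) at the step from 1 to 0 and Sesn2 at 0.14 ± 0.033, limma adjusted p = 0.00866 per copy. Of 22 hypoxia and glycolysis genes 7 were higher and 5 lower: Pdk1, an inhibitor of pyruvate dehydrogenase, stood at 13.6 and 13.5 RPKM in P3 DKO, 16.8 and 16.2 in P3 Jmjd1aKO, 27.2 and 29.1 in P3 Jmjd1bKO, 24.8 and 26.3 in P3 Ctrl and 39.6 and 40.3 in P3 WT, a slope of -0.34 ± 0.031, limma adjusted p = 0.000465, and Vegfa, an angiogenic factor, changed by 0.26 ± 0.031, limma adjusted p = 0.000803, Hk2 by -0.15 ± 0.029, limma adjusted p = 0.00484.

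Promoter windows of 4 genes that follow the copy number are shown to let their composition be compared, 2 that were higher (Ripk3 and Rhox10) and 2 that were lower (Mcm10 and Pdk1) with fewer copies. They are the 250 bases before the RefSeq start of the gene on GRCm38.p6, 5′ to 3′ on the strand of the gene. Capitals mark a match to CACGTG, and TCCCGC and TGACGTCA, also searched on both strands, had none.
Ripk3 (chr14:55788858-55789107, minus strand): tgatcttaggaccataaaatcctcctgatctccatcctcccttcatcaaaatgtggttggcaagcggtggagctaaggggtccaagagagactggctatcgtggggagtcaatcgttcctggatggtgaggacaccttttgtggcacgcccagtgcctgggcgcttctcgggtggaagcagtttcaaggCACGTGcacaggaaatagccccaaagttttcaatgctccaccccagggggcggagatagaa
Rhox10 (chrX:38066225-38066474, plus strand): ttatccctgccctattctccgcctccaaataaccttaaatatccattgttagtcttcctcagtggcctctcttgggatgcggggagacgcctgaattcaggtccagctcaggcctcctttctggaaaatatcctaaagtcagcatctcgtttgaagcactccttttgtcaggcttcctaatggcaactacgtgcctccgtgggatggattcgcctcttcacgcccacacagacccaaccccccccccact
Mcm10 (chr2:5012792-5013041, minus strand): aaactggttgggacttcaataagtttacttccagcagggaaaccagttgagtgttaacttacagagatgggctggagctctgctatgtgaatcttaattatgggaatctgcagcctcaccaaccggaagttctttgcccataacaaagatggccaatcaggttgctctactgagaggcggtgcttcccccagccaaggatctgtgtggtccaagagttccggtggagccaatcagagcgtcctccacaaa
Pdk1 (chr2:71872974-71873223, plus strand): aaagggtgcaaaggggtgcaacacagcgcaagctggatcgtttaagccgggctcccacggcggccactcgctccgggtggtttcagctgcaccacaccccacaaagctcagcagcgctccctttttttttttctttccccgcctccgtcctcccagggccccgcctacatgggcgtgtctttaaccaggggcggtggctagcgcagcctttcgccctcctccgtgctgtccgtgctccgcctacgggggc
The windows hold 8 CG pairs in Ripk3, 8 in Rhox10, 4 in Mcm10 and 19 in Pdk1, against a median of 6 (quartiles 2 and 16) over 27025 mouse promoter windows of this length. CACGTG was present in 6.04% of all those windows, TCCCGC in 16.9% and TGACGTCA in 1.6%. A match is a description of letters only. A promoter window was found for 11570 of the tested genes (78.3%), too few for a comparison of the classes.

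Of 17 interferon-stimulated genes 3 were higher and 4 lower, with Irf1 at -0.30 ± 0.044, limma adjusted p = 0.0014 and Dhx58 at -0.15 ± 0.035, limma adjusted p = 0.00945. Of 21 immediate early genes 3 were higher and none lower; Egr1 and Jund, the members with the highest levels, were at 0.12 ± 0.10, limma adjusted p = 0.345 and -0.01 ± 0.045, limma adjusted p = 0.844. Of 29 oxidative phosphorylation genes 1 was higher and 4 lower, Ndufv2 at -0.09 ± 0.028, limma adjusted p = 0.03. Of 38 cytosolic ribosomal protein genes none was higher and 5 lower, and Rps14, Rpl13 and Rps3 changed at the step from 1 to 0 by -0.54 ± 0.13, -0.62 ± 0.16 and -0.40 ± 0.11.

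Marker lists of other cells were read in the same way. Of 25 Sertoli markers 2 were higher and 1 lower over the slope; Dmrt1, which is also made by germ cells, changed by -0.14 ± 0.019, limma adjusted p = 0.00127 and Clu by 0.09 ± 0.27, limma adjusted p = 0.804, with 27.96 and 255 RPKM in P3 Jmjd1aKO and 20.4 and 312 in P3 Jmjd1bKO. Of 11 tested Leydig markers 2 were higher and none lower, with Cyb5r3 (0.14 ± 0.042, limma adjusted p = 0.0235) and Scarb1 (0.12 ± 0.026, limma adjusted p = 0.00746) the most abundant. Of 17 stromal and peritubular markers 9 were higher and none lower, and 1 was higher over the Cre carriers: Pdgfra changed by 0.21 ± 0.064, limma adjusted p = 0.0269 and Nr2f2 by 0.20 ± 0.071, limma adjusted p = 0.048. Of 12 leukocyte markers 1 was higher, Cd14 (0.29 ± 0.05, limma adjusted p = 0.00249). Of 14 endothelial markers 6 were higher and none lower over the slope. Over the Cre carriers, and again at the step from 1 to 0, 1 was higher and 2 lower. The list had Egfl7 (-0.03 ± 0.039, limma adjusted p = 0.555) and Plvap (0.01 ± 0.044, limma adjusted p = 0.853) as the most abundant ones. Of 7 erythroid markers 1 was higher and 1 lower, with Fech (-0.12 ± 0.034, limma adjusted p = 0.0216) and Bpgm (-0.02 ± 0.044, limma adjusted p = 0.726). The summed stromal level was 70.3 and 73.0 RPKM in P3 DKO and 32.9 and 33.8 in P3 WT, and its part in the genes that were higher with fewer copies was not tested.

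**Figure D5:**
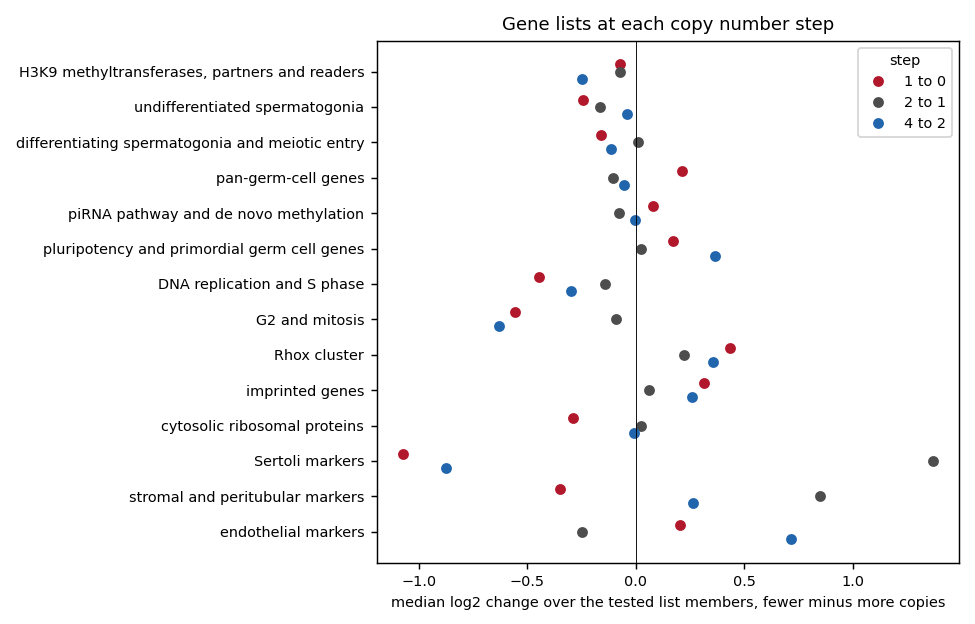
Median step change, log2(RPKM + 1), fewer minus more copies, over the tested members of each gene list for the 3 steps. The S phase list has medians of -0.44, -0.14 and -0.30 at the steps from 1 to 0, 2 to 1 and 4 to 2, and the Rhox list 0.43, 0.22 and 0.36.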

How the data were processed

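The deposited values are RPKM, reads scaled to transcript length and library size, made by the authors for 24340 gene symbols in each of the 14 libraries. Per the submitters' processing notes, TopHat2 2.1.1, Cufflinks 2.1.1 and the mm10 genome were used. The role of each tool, the annotation and the library totals are not given in the sources used here. Per the labels' protocols the library kit selects mRNA. Depth was taken from how finely low RPKM values are spaced in genes with 1 transcript, of which 81.6 to 84.6% lay within 0.2 of a whole fragment. Its number limits the precision of low values, and no counting interval is given. Gene coordinates came from GENCODE M21 (GRCm38) and promoter windows from RefSeq.

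From the files, log2(RPKM + 1) was computed for the 14772 genes that reached 1 RPKM in 2 or more of the 14 libraries (9568 removed). limma 3.58.1 in R 4.3.3 was fitted with 1 mean per group and trended eBayes, so that groups of 2 share 1 estimate of the spread (residual df of 7). The mean absolute log2 difference between replicates was 0.128 in P7 Ctrl, 0.293 in P7 DKO, 0.204 in P3 WT, 0.216 in P3 DKO and 0.286 in P3 Ctrl. It was largest in the single knockouts, 0.367 in P3 Jmjd1aKO and 0.424 in P3 Jmjd1bKO. On average the shared estimate understates their spread, which enters the steps from 2 to 1 and from 1 to 0. All tests are two-sided, with Benjamini-Hochberg adjustment within each of 8 comparisons. The median SE of a step was 0.161 from 1 to 0 and from 2 to 1, and 0.185 from 4 to 2. The fit was tested on simulated data. The 24 lists hold 514 genes. The order of the libraries, the gene lists and the class rules were chosen with earlier results of these data known, so no list is independent support.

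Genes were named by a rule: Kdm3a and Kdm3b, the 8 largest changes per direction in the steady class, the 4 largest per direction at 1 step, up to 3 class members per list, and the 2 most abundant members of lists with none. The ranking passed over predicted genes and small RNAs. One more gene met this rule and is not reported here, though every fit and count includes it. Alternatives were another pseudocount, no filter, centring on the median, the P3 libraries alone, a replicate block, other class limits, the Cre carriers alone, copy number as a numeric term, small RNAs left out, and each P3 library left out. An alternative that leaves 1 library in a group assumes that it varies like the others.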

Additional observations from a re-analysis of the deposited data

Results flagged for a closer look

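In 2 genes that follow the copy number the single knockouts, which have 1 functional copy each, differed from each other in limma's test of that difference over all tested genes. Kdm3a, the gene deleted in 1 of them, averaged 9.83 RPKM in P3 Jmjd1aKO and 25.7 RPKM in P3 Jmjd1bKO, a log2 difference of -1.30. Dppa5a averaged 86.3 RPKM in P3 Jmjd1aKO and 50.6 RPKM in P3 Jmjd1bKO, a log2 difference of 0.757. With small RNAs and predicted genes left out, Kdm3a kept its call and Dppa5a did not (limma adjusted p = 0.079). Dppa5a also missed the threshold with centring on the median (0.0693), with the P3 libraries alone (0.174) and without any 1 library of P3 DKO, P3 Ctrl or either single knockout (0.0579 to 0.288).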

How the results depend on the processing

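With a pseudocount of 0.1 the step from 1 to 0 passed in 374 genes and that from 4 to 2 in 183, and 98 and 67 changed at that step alone. With no filter on low values the counts were 2054 for the step from 1 to 0, 537 with that step alone, 10 for the step from 2 to 1, 111 for the departure from a line and 20 for the single knockouts against each other. With the P3 libraries alone, fewer samples and no P7 group are left to estimate the spread. The step from 1 to 0 then passed in 10 genes (4 with that step alone), that from 4 to 2 in 14 (7 alone), and the departure in 12. Leaving out small RNAs and predicted genes gave 0 genes at the step from 2 to 1, 2 departures and 1 difference between the single knockouts. Without replicate 2 of both single knockouts the counts were 35 for the step from 1 to 0 (6 alone), 12 from 2 to 1, 2199 from 4 to 2 (485 alone), 22 departures, 13 differences between the single knockouts and 2239 steady genes. Over the Cre carriers the slope passed in 661 genes. Steps of at least 10% gave 1658 steady genes, and other steps of at most 40% gave 427 genes with the step from 1 to 0 alone and 70 with that from 4 to 2. Alternatives chosen after seeing the data were genes with a mean of at least 10 RPKM (slope in 2864 genes, 699 higher and 2165 lower, and 545 steady, 97 higher and 448 lower), steady genes also past the threshold over the Cre carriers (181) and steady genes with each single knockout between P3 DKO and P3 Ctrl (658). Leaving out libraries that are not in a step kept the size of that step in every gene. Its count then moved only through the shared estimate of the spread and its residual df. The cause of the other differences was not tested.

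Leaving out 1 P3 library at a time, counts ranged from 2738 to 6637 for the slope, 14 to 2698 for the step from 1 to 0, 4 to 8 from 2 to 1, 4 to 822 from 4 to 2, 8 to 17 departures, 5 to 8 differences between the single knockouts, 4561 to 5325 in P7 DKO, 533 to 1672 steady genes, 3 to 284 with the step from 1 to 0 alone, 0 to 2 from 2 to 1 and 2 to 265 from 4 to 2.

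The labels give no source for the replicate numbers, and the differences between replicates did not correlate above 0.1 across genes in every pair of groups. The correlation was 0.58 between the single knockouts, whose replicates 2 share the high Sertoli signal and the lower depth, and -0.13 to 0.19 in the other pairs, so the numbers are not taken to pair the samples. With a replicate block the step from 1 to 0 passed in 1974 genes (308 alone) and that from 4 to 2 in 776 (200 alone), and no named gene changed its call at its slope or step, while the difference of Dppa5a between the single knockouts had a limma adjusted p of 0.0518.

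Of 81 named genes, 75 passed and 20 kept their direction and call in every alternative run. Between 0 and 28 of them lost their call when 1 library was left out, 28 without P3 WT replicate 1. The changes per copy of these genes, none of them past the threshold with all libraries except Scarb1, turned sign: Plvap to -0.0059 with centring on the median, to -0.43 over the Cre carriers (where limma's adjusted p was 0.0359) and from -0.019 to 0.042 when a library was left out, and Jund to 0.0082 and 0.0013 without P3 Jmjd1bKO replicate 1 or P3 WT replicate 1. Egfl7 ranged from -0.062 to 0.00084 when a library was left out, and was -0.22 over the Cre carriers. Clu turned to -0.0093 and -0.033 without P3 Jmjd1aKO replicate 2 or P3 Jmjd1bKO replicate 2 and to -0.14 without both, and reached 0.22 without P3 Jmjd1bKO replicate 1. Over the Cre carriers Egr1 turned to -0.087 and Scarb1 to -0.069. The low depth of P3 WT limits what can be read of genes near 1 RPKM at the step from 4 to 2. Centring turned the median of the piRNA list to -0.013 and moved no list with a count of at least 9 in 1 direction to the other.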
